A study of Mus musculus with 2 samples.

Results

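The genes described here carry glucose into the cell and through glycolysis to lactate. They are 10 of the 31053 gene rows in the table, chosen by name, and all 10 had counts in both libraries. In the order of the pathway they are Slc2a1, Hk2, Aldoa, Tpi1, Gapdh, Pgk1, Pgam1, Eno1, Pkm and Ldha. The cells were macrophages and microglia from dissociated optic nerves of wildtype 129S1/SvlmJ mice of both sexes, profiled by 10x Genomics 3' droplet single-cell RNA sequencing. The injured library came from nerves 2 weeks after optic nerve crush, with crush at 8 weeks and collection at 10 weeks of age. The uninjured library came from nerves of mice 10 weeks old with no treatment. These ages are from the series' design text, while the sample labels give P56 (postnatal day 56) for both libraries. The sources used here do not give the number of animals behind a library. With 1 library per condition no test was made, and no difference has a replicate check. All intervals are exact, at 95%, from the Poisson distribution for a level, by Clopper-Pearson for a share and from the conditional binomial for a ratio, and they cover counting error only.

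Glycolysis splits glucose into pyruvate in the cytosol and yields ATP without oxygen. Macrophages and microglia are known to lean on it when they are activated, and many of its genes are targets of hypoxia-inducible factor 1. Hexokinase traps glucose by phosphorylating it and stands at the entry, the enzymes from aldolase to pyruvate kinase carry out later steps, and lactate dehydrogenase regenerates the NAD+ that the pathway consumes. The 8 genes from Aldoa to Ldha are called the later steps below.

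From crushed nerves 727 cells were analysed, with 3697992 UMIs (unique molecular identifiers, each a captured transcript), a median of 1123 UMIs per cell and a range of 500 to 53972. The uninjured library had 51 cells and 87499 UMIs, with a median of 888 and a range of 458 to 11100. No cell barcode was shared. Levels are given in CPM, UMIs scaled to a common total over the cells summed, and a count of 0 allows up to 0.811 CPM for injured cells against 34.3 CPM for uninjured cells. Summed counts follow few cells. The 99 injured cells over 15000 UMIs held 68.4% of all injured UMIs, and an uninjured cell with 10194 haemoglobin UMIs among its 11100 held no UMI of the 10 genes and none of C1qa. All 11 macrophage markers were seen in both libraries and summed to 38226 CPM for injured cells, against 24366 CPM for uninjured cells. All 8 myelin markers were seen too and summed to 1174 CPM in injured cells and 8400 CPM in uninjured cells. The haemoglobin and erythroid markers summed to 11.6 CPM in injured cells and 116767 CPM in uninjured cells. Sums of the T cell, endothelial, fibroblast and neutrophil markers were 30.6, 71.7, 24.9 and 16.8 CPM in injured cells, against 11.4, 91.4, 57.1 and 0 CPM in uninjured cells. The 6 astrocyte markers summed to 172 CPM for injured cells, against 1074 CPM for uninjured cells. The part of these other-cell transcripts in the differences below was not tested.

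All 8 later steps were higher in the injured library, and of the 10 genes Hk2 alone was lower. The later steps summed to 4750 CPM in injured cells (4680 to 4821, 17567 UMIs) and 1017 CPM in uninjured cells (817 to 1252, 89 UMIs), a ratio of 4.67 (3.79 to 5.82). Hk2 stood at 190 CPM in injured cells (177 to 205, 704 UMIs) and 777 CPM in uninjured cells (603 to 985, 68 UMIs), 4.08-fold lower after injury (3.13 to 5.24). By a rule of size, a ratio of 1.5 after 10 CPM had been added to both levels, 9 of the 10 genes were higher and 1 was lower in the injured library. Of the 4021 genes compared, 32.8% were higher and 21.8% lower by that rule. The counting interval lay above 1 for 8 of the 10 genes and below 1 for Hk2, against 12.5% and 13.4% of the genes compared. The median log2 ratio of the 9 genes other than Hk2 was 2.21, and that of all genes compared was 0.17.

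**Figure D1:**
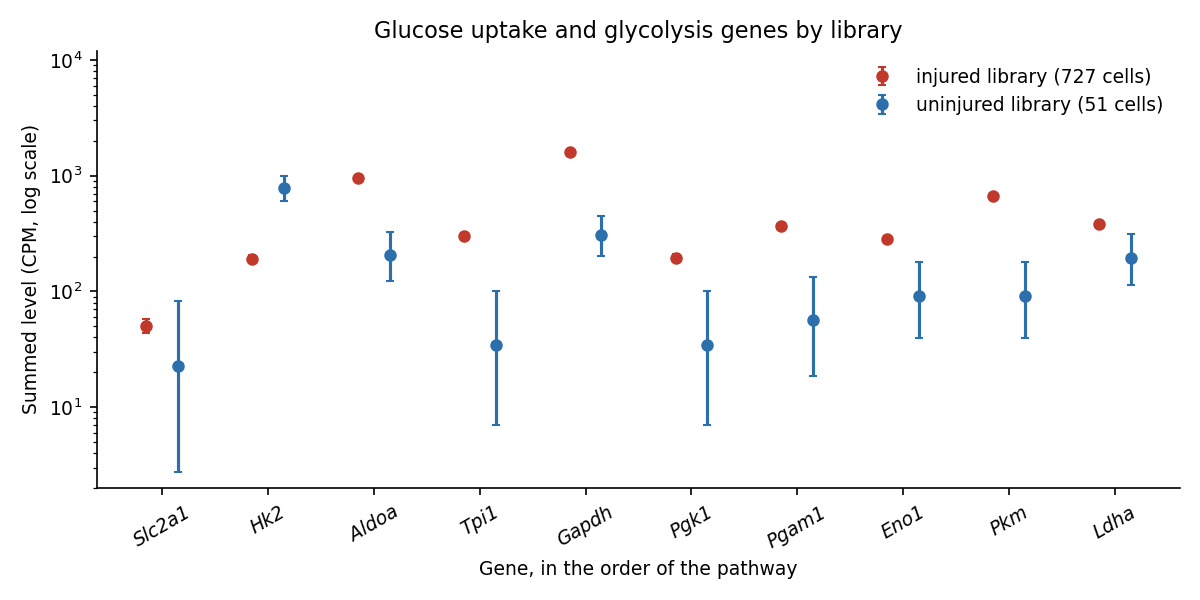
Summed level of each gene in CPM on a log scale, in the injured (red, left of each pair) and the uninjured library (blue), with bars for the 95% Poisson interval of the count. Hk2 is the gene with its injured point below its uninjured point (190 and 777 CPM), and the uninjured bars are wide because 2 to 68 UMIs stand behind them.

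The promoter windows of a few genes are shown for the hypoxia-response core, because the later steps differed in one direction between the libraries and Hk2, from the same pathway, in the other. The core was searched as ACGTG and GCGTG on both strands in the 250 bases before each transcription start given by RefSeq (GRCm38.p6, the mm10 assembly). All 10 genes matched by symbol, with 16 windows. Hk2, on the minus strand at chr6:82774455-82774704, and Pgk1, on the plus strand at chrX:106186850-106187099, each hold 2 matches to ACGTG. The first of 2 Ldha windows, on the plus strand at chr7:46845554-46845803, holds 5 matches, 4 of which are the overlapping strands of 2 copies of the palindrome CACGTG. Gapdh, on the minus strand at chr6:125165774-125166023, holds 2 matches to GCGTG. Each window is written 5′ to 3′ on the strand of its gene, and capitals mark matches on either strand.
Hk2: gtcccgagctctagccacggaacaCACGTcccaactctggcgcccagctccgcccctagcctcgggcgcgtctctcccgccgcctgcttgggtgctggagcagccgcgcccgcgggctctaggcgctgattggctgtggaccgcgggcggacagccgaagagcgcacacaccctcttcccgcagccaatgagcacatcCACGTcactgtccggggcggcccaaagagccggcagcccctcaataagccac
Pgk1: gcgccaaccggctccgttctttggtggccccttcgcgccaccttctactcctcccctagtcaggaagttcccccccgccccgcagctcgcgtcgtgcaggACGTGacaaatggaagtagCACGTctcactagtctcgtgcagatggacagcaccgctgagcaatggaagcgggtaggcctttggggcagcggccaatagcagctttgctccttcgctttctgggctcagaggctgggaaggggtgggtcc
Ldha: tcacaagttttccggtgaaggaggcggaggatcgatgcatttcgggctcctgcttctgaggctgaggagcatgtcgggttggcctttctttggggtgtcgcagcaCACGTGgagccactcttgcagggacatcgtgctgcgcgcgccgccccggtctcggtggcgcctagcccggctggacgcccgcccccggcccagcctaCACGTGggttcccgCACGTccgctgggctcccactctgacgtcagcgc
Gapdh: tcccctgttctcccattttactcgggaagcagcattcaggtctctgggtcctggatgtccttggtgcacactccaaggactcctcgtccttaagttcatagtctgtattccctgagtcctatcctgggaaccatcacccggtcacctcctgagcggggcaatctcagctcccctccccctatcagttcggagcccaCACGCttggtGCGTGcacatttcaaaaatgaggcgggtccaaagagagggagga
Among the 10 genes, 7 held ACGTG in at least 1 window, 5 held GCGTG, and 1 held neither. By window, 8 of the 16 held ACGTG and 7 held GCGTG. Of 32851 windows of the same length over all genes, 16.6% held ACGTG, 28.2% held GCGTG, 38.6% held either and 6.02% held CACGTG. Of all windows, 6.81% held 2 or more matches to ACGTG, as those of Hk2 and Pgk1 do. The part of any match in the differences between the libraries was not tested.

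Slc2a1 encodes GLUT1, a facilitative transporter that brings glucose into the cell (chr4:119108711-119137983, plus strand, mm10; all positions are of protein-coding genes in GENCODE vM21). It was the scarcest of the 10, with 187 injured and 2 uninjured UMIs, or 50.6 CPM in injured cells (43.6 to 58.4) and 22.9 CPM in uninjured cells (2.77 to 82.6). The ratio was 2.21 (0.604 to 18.4), so counting error alone spans no difference. It was seen in 11.8% of injured cells and 3.92% of uninjured cells, and it is the only one of the 10 that passed the filter of 5% of cells through the injured library alone. At the filter of 10% used for all genes compared, Tpi1, Pgk1 and Pgam1 also passed through the injured library alone. They were seen in 5.88%, 5.88% and 9.80% of uninjured cells. The injured copies lay mostly in deep cells, with 170 of the 187 UMIs in cells of at least 5000 UMIs.

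Hk2 encodes hexokinase 2 (chr6:82725025-82774454, minus strand), the inducible hexokinase, which can bind the mitochondrial outer membrane. It was seen in 30.3% of injured cells (26.9 to 33.7), against 39.2% of uninjured cells (25.8 to 53.9). The other hexokinases were scarce, so Hk2 made up 76.3% of the 923 Hk1, Hk2 and Hk3 UMIs in injured cells (73.4 to 79.0) and 95.8% of 71 in uninjured cells (88.1 to 99.1). Its uninjured UMIs were clumped. A single cell of 881 UMIs, with 10.9% of them Malat1, held 17 of the 68, and the top 3 cells held 30, whereas the top injured cell held 26 of 704. Without that single cell Hk2 stood at 190 CPM in injured against 589 CPM in uninjured cells, 3.09-fold lower after injury (2.28 to 4.11). Without the top 3 uninjured cells the levels were 190 CPM in injured against 477 CPM in uninjured cells.

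Aldoa, aldolase A, splits fructose bisphosphate into triose phosphates (chr7:126795234-126800751, minus strand). It stood at 962 CPM in injured cells (930.5 to 994, 3557 UMIs) and 206 CPM in uninjured cells (122 to 325, 18 UMIs), a ratio of 4.68 (2.95 to 7.90). Tpi1 interconverts those triose phosphates (chr6:124810586-124814296, minus strand). It stood at 299 CPM in injured cells (281 to 317) and 34.3 CPM in uninjured cells (7.07 to 100.2), and its ratio of 8.72 (2.97 to 42.3) rests on 3 uninjured UMIs. These enzymes of the middle of the pathway were seen in 67.1% (Aldoa) and 42.5% (Tpi1) of injured cells, against 25.5% and 5.88% of uninjured cells.

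Gapdh, which oxidises glyceraldehyde phosphate and reduces NAD+, had the most UMIs of the 10 (chr6:125161715-125166467, minus strand). Its level was 1602 CPM in injured cells (1562 to 1644, 5925 UMIs) and 309 CPM in uninjured cells (203 to 449, 27 UMIs), a ratio of 5.19 (3.57 to 7.89). Pgk1, phosphoglycerate kinase 1, makes the first ATP that the pathway returns (chrX:106187100-106203699, plus strand). It stood at 195 CPM in injured cells (181 to 210) and 34.3 CPM in uninjured cells, and its ratio of 5.69 (1.94 to 27.7) also rests on 3 uninjured UMIs. Gapdh is often used as a constant gene for scaling, and the interval of its ratio here lay above 1. The ratios of the later steps, Gapdh among them, ran from 1.96 to 8.72.

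Pgam1, phosphoglycerate mutase 1, shifts the phosphate within phosphoglycerate (chr19:41911923-41918660, plus strand). It stood at 366 CPM in injured cells (347 to 386) and 57.1 CPM in uninjured cells (18.6 to 133, 5 UMIs), a ratio of 6.40 (2.74 to 19.7). Eno1, enolase 1, makes phosphoenolpyruvate (chr4:150236721-150248879, plus strand). It stood at 281 CPM in injured cells (264 to 299) and 91.4 CPM in uninjured cells (39.5 to 180.2, 8 UMIs), a ratio of 3.07 (1.55 to 7.14). The near-copy Eno1b had 17 UMIs in injured cells and 0 in uninjured cells. These enzymes have processed pseudogenes and close copies in the mouse genome, as do Gapdh, Aldoa, Tpi1, Pgk1 and Ldha, and the sources used here do not say how reads shared with copies were counted, so the counts are uncertain by that much. A second table row named Aldoa held 0 UMIs.

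Pkm, pyruvate kinase, makes pyruvate and the last ATP of the pathway (chr9:59656368-59679375, plus strand). It stood at 665 CPM in injured cells (639 to 692, 2460 UMIs) and 91.4 CPM in uninjured cells (39.5 to 180.2, 8 UMIs), a ratio of 7.28 (3.69 to 16.9). The 3' counts do not tell its M1 and M2 isoforms apart. Ldha, the lactate dehydrogenase subunit that turns pyruvate to lactate (chr7:46841475-46855627, plus strand), had the smallest ratio of the later steps, 1.96 (1.22 to 3.37). It stood at 380 CPM in injured cells (361 to 401) and 194 CPM in uninjured cells (113 to 311, 17 UMIs). Its partner subunit Ldhb stood at 300.2 CPM in injured cells and 251 CPM in uninjured cells, a ratio of 1.19 (0.785 to 1.91). Among the later-step UMIs, Ldha took 8.00% in injured cells (7.61 to 8.41) and 19.1% in uninjured cells (11.5 to 28.8).

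The cells differ in depth and in Malat1, a nuclear RNA, so each step was also read within classes. Deep cells have at least 5000 UMIs (144 injured, 4 uninjured). Shallow cells were divided at 1% of UMIs from Malat1 into Malat1-rich (91 injured, 17 uninjured) and Malat1-poor (492 injured, 30 uninjured). The deep injured cells held 79.9% of the injured UMIs, and the deep uninjured cells 41.1% of the uninjured ones. The later steps summed to a higher level in injured cells in each class. In deep cells the sum was 4588 CPM in injured against 835 CPM in uninjured cells (30 UMIs), a ratio of 5.50 (3.85 to 8.15), which was 3.80 (2.66 to 5.63) without the haemoglobin-rich cell. In Malat1-poor cells it was 6618 CPM in injured against 1696 CPM in uninjured cells, a ratio of 3.90 (2.90 to 5.38). Median mitochondrial shares were 0.503% in injured against 8.11% in uninjured Malat1-poor cells, and 1.10% against 5.93% over all cells of each library. Myelin markers summed to 5144 CPM in injured against 18459 CPM in uninjured Malat1-poor cells, and the part of either in the later-step difference was not tested. In Malat1-rich cells it was 1441 CPM in injured against 586 CPM in uninjured cells (15 UMIs), a ratio of 2.46 (1.46 to 4.46).

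Gene by gene, the counts were alike in the deep and Malat1-poor classes. In deep cells 9 of the 10 genes were higher and 1 lower by the rule of size, against 49.8% and 15% of all genes compared, and the interval lay above 1 for 7, against 8.33% of genes, and below 1 for 0, against 4.35%. Without the haemoglobin-rich cell 8 were higher, 1 lower and 1 in between, against 40.4% and 25.1%, and the interval lay above 1 for 5, against 3.28%, and below 1 for Hk2, against 7.51%. In Malat1-poor cells 9 were higher and 1 lower, against 47.8% and 19.8% of genes, and the interval lay above 1 for 8, against 3.41%, and below 1 for 0, against 4.8%. In Malat1-rich cells 5 were higher, 2 lower and 3 in between, against 36.4% and 30.7% of genes, and the interval lay above 1 for 3, Aldoa, Gapdh and Pkm, against 2.93%, and below 1 for Hk2, against 8.95%. The medians of the 9 genes other than Hk2 were 2.29, 1.82 and 1.95 on the log2 scale in deep, Malat1-rich and Malat1-poor cells, and those of all genes compared were 0.58, 0.02 and 0.49.

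**Figure D2:**
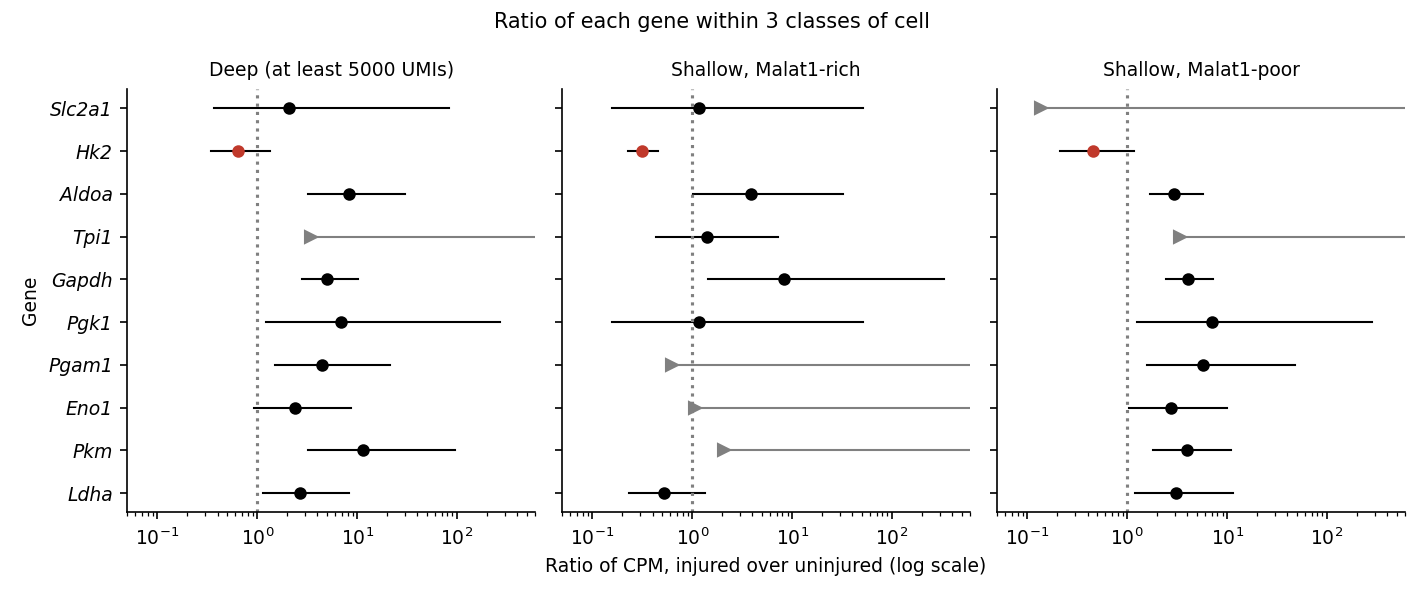
Ratio of the injured over the uninjured level (log scale) for each gene in deep, Malat1-rich and Malat1-poor cells, with lines for the 95% interval and the dotted line at no difference. Grey triangles mark the ratio against 3 counts where the uninjured class had 0 UMIs, a bound that lies below 1 for Pgam1 and Slc2a1 and near 1 for Eno1, and Hk2 (red) lies left of the dotted line at 0.637, 0.316 and 0.456, with an interval that crosses the line in deep and Malat1-poor cells.

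Several class values rest on very few uninjured UMIs. Tpi1 had 0 uninjured UMIs in the deep and the Malat1-poor class, so against 3 counts over the class it was at least 3.47-fold and at least 3.35-fold higher in injured cells. Pkm had 43 injured UMIs and 0 uninjured UMIs in the Malat1-rich class, at least 2.08-fold higher. Eno1 had 22 injured and 0 uninjured UMIs there, and its interval, with a lower end of 0.796, spans no difference. Pgam1 in Malat1-rich cells and Slc2a1 in Malat1-poor cells had 0 uninjured UMIs and injured levels of 73.8 and 15.8 CPM, under the 117 and 116 CPM that 0 allows, and the rule of size counts both as higher only through the added 10 CPM.

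Ldha went with the other later steps in 2 of the 3 classes. In deep cells it was 375 CPM in injured against 139 CPM in uninjured cells, a ratio of 2.69 (1.15 to 8.31), and without the haemoglobin-rich cell 1.86 (0.796 to 5.75). In Malat1-poor cells it was 475 CPM in injured against 154 CPM in uninjured cells, a ratio of 3.08 (1.19 to 11.4). In Malat1-rich cells it was 165 CPM in injured against 312 CPM in uninjured cells (29 and 8 UMIs), a ratio of 0.527 (0.235 to 1.33).

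The interval of the Hk2 ratio lay below 1 in Malat1-rich cells and spanned 1 in the other 2 classes. In Malat1-rich cells Hk2 stood at 630 CPM in injured cells (518 to 759, 111 UMIs) and 1991 CPM in uninjured cells (1483 to 2618, 51 UMIs), 3.16-fold lower after injury (2.22 to 4.44), and 2.18-fold lower (1.44 to 3.23) without the top uninjured cell. In Malat1-poor cells it was 123 CPM in injured against 270 CPM in uninjured cells (70 and 7 UMIs), a ratio of 0.456 (0.210 to 1.18). In deep cells it was 177 CPM in injured against 278 CPM in uninjured cells (523 and 10 UMIs), a ratio of 0.637 (0.343 to 1.34). The lower Hk2 of deep injured cells depends on 1 uninjured cell that held 6 of those 10 UMIs: the ratio was 1.31 (0.508 to 4.82) without it and 0.440 (0.237 to 0.923) without the haemoglobin-rich cell instead. Of the 68 uninjured Hk2 UMIs 51 thus lay in Malat1-rich cells, which held 29.3% of the uninjured UMIs. Such cells held 4.77% of the injured UMIs.

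The Malat1-rich cells of the libraries were not alike in other respects. Their median mitochondrial share was 10.7% in injured and 3.11% in uninjured cells. The 8 dissociation and heat-shock genes summed to 4937 CPM in injured against 21747 CPM in uninjured Malat1-rich cells, and the 11 macrophage markers to 14408 CPM in injured against 25417 CPM in uninjured ones. Of 6 astrocyte markers 3 were seen in the injured and 1, Slc1a3, in the uninjured Malat1-rich cells, at sums of 494 and 3241 CPM, with Gfap, Aqp4, Aldh1l1, Slc1a2 and Gja1 at 0 in these uninjured cells. The part of these in the Hk2 difference was not tested.

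By depth alone, the interval of the Hk2 ratio stayed below 1 without the top uninjured cell of the bin only from 600 to 1000 UMIs. From 600 to 1000 UMIs it was 112 CPM in injured against 2133 CPM in uninjured cells, a ratio of 0.0526 (0.0278 to 0.0976), which was 0.125 (0.0565 to 0.290) without the uninjured cell with 17 Hk2 UMIs. From 1000 to 5000 UMIs it was 295 CPM in injured against 688 CPM in uninjured cells, a ratio of 0.429 (0.273 to 0.705), and 0.568 (0.339 to 1.02) without the top uninjured cell. Under 600 UMIs the values were 166 CPM in injured against 1240 CPM in uninjured cells, but 7 of the 8 uninjured UMIs came from 1 cell, and without it the ratio was 0.972 (0.138 to 42.2). The later steps summed to a higher level in injured cells at every depth that both libraries reached. The sums were 6234, 5348, 5310 and 2783 CPM in injured cells of under 600, 600 to 1000, 1000 to 5000 and 5000 to 15000 UMIs, against 1704, 1066, 1063 and 835 CPM in uninjured cells of the same depths. Without the haemoglobin-rich cell the last uninjured sum was 1208 CPM. Single genes could lie near no difference, as Ldha from 1000 to 5000 UMIs (ratio 1.11, 0.605 to 2.25) and Eno1 under 600 UMIs (1.23, 0.304 to 10.8). In injured cells over 15000 UMIs, a depth no uninjured cell had, the later steps summed to 4890 CPM and Hk2 stood at 175 CPM.

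Hk2 and the later steps also ran in opposite directions within each library. In injured cells Hk2 was 5.12-fold higher (3.76 to 7.005) in the Malat1-rich than in the Malat1-poor class, while the later steps summed to 0.218 of their Malat1-poor level (0.191 to 0.247). In uninjured cells Hk2 was 7.38-fold higher (3.34 to 19.3) in Malat1-rich cells and the later-step sum 0.345 of that in Malat1-poor cells (0.179 to 0.633). Not every later step followed this in uninjured cells. Tpi1 had 3 UMIs where Malat1 was high and 0 where it was low, and Pgk1 had 1 in each class. Ldha stood at 312 CPM in Malat1-rich and 154 CPM in Malat1-poor cells (8 and 4 UMIs), a ratio of 2.03 (0.543 to 9.20). Slc2a1 was 3.64-fold higher (1.87 to 8.09) in deep than in Malat1-poor injured cells, at 57.6 and 15.8 CPM.

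In finer steps of Malat1, with all depths pooled, the injured later-step sum fell with each step. It was 6680 CPM in cells under 0.25% Malat1, 5777 CPM from 0.25 to 0.5%, 4935 CPM from 0.5 to 1%, 3851 CPM from 1 to 2%, 1780 CPM from 2 to 5% and 957 CPM at 5% or more. Injured Hk2 was 122, 129, 174, 203, 459 and 446 CPM over the same steps. Within shallow injured cells the later-step sum was 6780, 5431, 6069, 1826, 1692 and 849 CPM, which is not a fall at each step. Shallow injured Hk2 was 123, 74.4, 218, 494, 742 and 577 CPM. Within deep injured cells the sum was 6294, 5876.5, 4915, 3939, 1839 and 1320 CPM. Deep injured Hk2 was 120, 144, 174, 190, 267 and 0 CPM, with 2 cells in the last step. Depth and mitochondrial share change along the pooled series too. The median mitochondrial share was 0.412% in the lowest and 10.7% in the highest step. Their part was not tested. At 5% Malat1 or more, Hk2 stood at 446 CPM in injured cells (34 UMIs, 30 cells) and 2626 CPM in uninjured cells (43 UMIs, 10 cells), or 1678 CPM in the uninjured cells without the one that held 17. From 2 to 5% it stood at 459 CPM in injured cells (368 to 567) and 509 CPM in uninjured cells (291 to 827), which overlap, and the later steps at 1780 CPM in injured against 1177 CPM in uninjured cells. Under 0.25% the values were 122 CPM in injured against 196 CPM in uninjured cells for Hk2, and 6680 CPM in injured against 1207 CPM in uninjured cells for the later steps. The haemoglobin-rich cell lies in this step. Without it the uninjured levels were 285 CPM for Hk2 and 1753 CPM for the later steps.

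**Figure D3:**
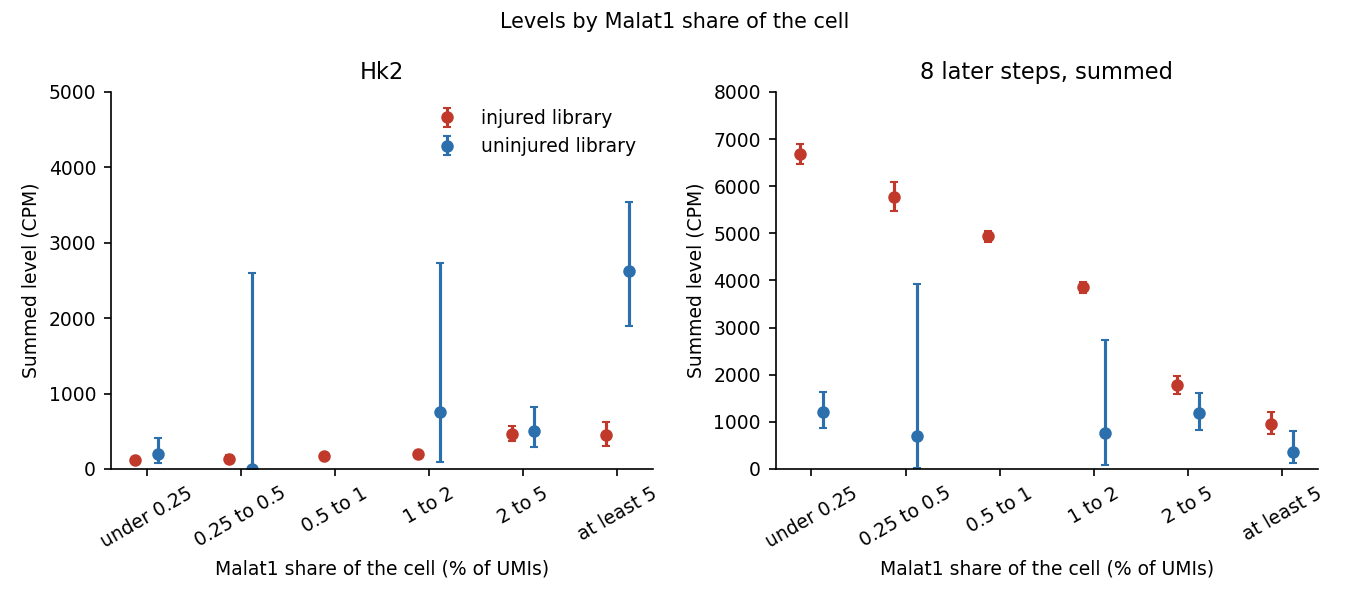
Level in CPM of Hk2 (left panel) and of the 8 later steps summed (right panel) in cells grouped by Malat1 share, for the injured (red) and the uninjured library (blue), with 95% Poisson intervals. The injured later-step sum goes from 6680 CPM at the lowest to 957 CPM at the highest Malat1 share, and the uninjured Hk2 point at 5% or more (2626 CPM) stands above all others. No uninjured cell had 0.5 to 1% Malat1. All depths are pooled, and the uninjured points under 0.25% include the haemoglobin-rich cell.

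The relation of the entry step to the rest can be read as the share of Hk2 in the UMIs of Hk2 and the later steps, which does not depend on the total of the library. It was 3.85% in injured cells (3.58 to 4.14) and 43.3% in uninjured cells (35.4 to 51.4). In deep cells it was 3.72% in injured (3.41 to 4.04) and 25% in uninjured cells (12.7 to 41.2), and 12.9% (3.63 to 29.8) in uninjured deep cells without the cell that held 6 Hk2 UMIs. In Malat1-rich cells it was 30.4% in injured (25.7 to 35.4) and 77.3% in uninjured cells (65.3 to 86.7), and in Malat1-poor cells 1.83% in injured (1.43 to 2.30) and 13.7% in uninjured cells (5.70 to 26.3). The intervals of the libraries did not overlap in the Malat1-rich and Malat1-poor classes, also without the top uninjured cell (69.4%, 54.6 to 81.7, and 10.4%, 3.47 to 22.7). In deep cells they overlap once that 1 cell is left out.

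**Figure D4:**
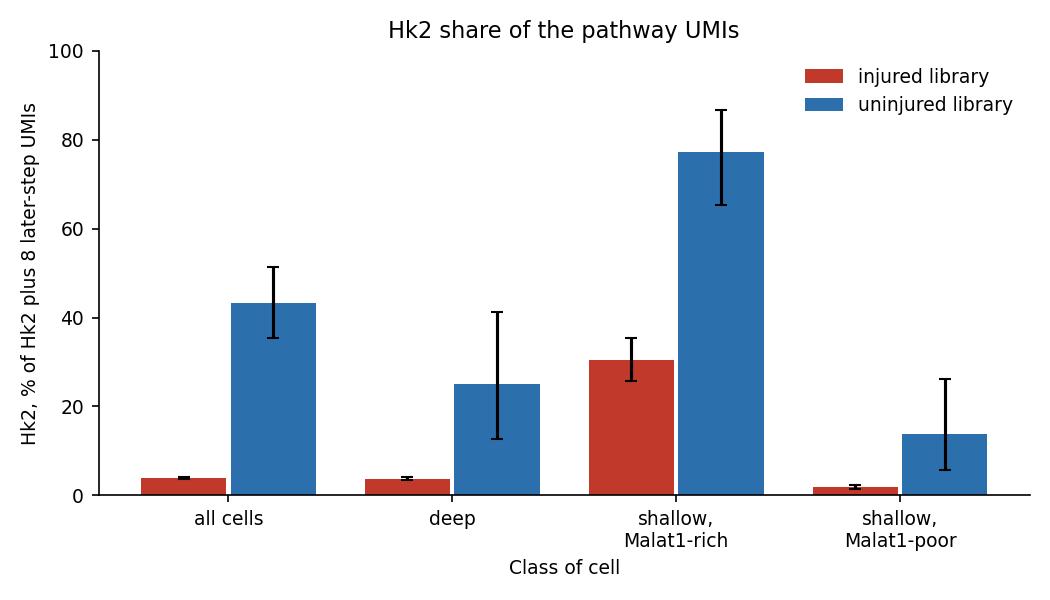
Share of Hk2 in the UMIs of Hk2 and the 8 later steps in injured (red, left) and uninjured cells (blue), over all cells and by class, with 95% Clopper-Pearson intervals. The injured bar is lower in every pair, and the Malat1-rich bars are the highest in both libraries (30.4 and 77.3%).

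Single cells carried the later steps unevenly. A median of 4 of the 10 genes was seen per injured cell and 55 injured cells held all 10, while the median uninjured cell held 1 and no uninjured cell held more than 7. These counts follow depth: all 55 were deep cells, and 51 of them had over 15000 UMIs, a depth no uninjured cell had. In Malat1-rich cells the median was 2 in injured against 1 in uninjured cells, and in Malat1-poor cells 3 against 1. No later-step UMI was found in 44 injured cells (6.05%) and in 19 uninjured cells (37.3%). Of the Hk2-positive cells, 11 of 220 injured and 8 of 20 uninjured cells held no later-step UMI. These Hk2-positive cells also differed in depth, with median UMIs of 7469 in the injured and 1119.5 in the uninjured library. By class the counts were 11 of 46 injured and 7 of 13 uninjured in Malat1-rich cells. They were 0 of 55 and 1 of 5 in Malat1-poor cells, and 0 of 119 and 0 of 2 in deep cells. Per cell the later-step level was 0, 4354 and 24927 CPM (lowest, median, highest) in injured cells and 0, 716 and 9191 CPM in uninjured cells, so that the libraries overlapped widely.

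Detection was also compared at an equal depth of 500 UMIs per cell, a depth that 0 injured and 2 uninjured cells did not reach. Gapdh was found in 54.1% of injured cells (50.4 to 57.7), against 22.4% of uninjured cells (11.8 to 36.6), Aldoa in 38.7% and 16.3%, and Pkm in 26.5% and 6.12%. Unthinned, these shares were 77.9% and 29.4% for Gapdh, 67.1% and 25.5% for Aldoa, and 57.2% and 13.7% for Pkm. Hk2 was found in 8.53% of thinned injured cells (6.60 to 10.8), against 24.5% of thinned uninjured cells (13.3 to 38.9). Thinned Slc2a1 had 8 UMIs in injured and 1 in uninjured cells, too few to read a direction. The haemoglobin-rich uninjured cell of 11100 UMIs held none of the 10 genes. The 5 injured cells with T cell genes, at a median of 5387 UMIs, held Gapdh in 4 and Hk2 in 2. Such cells may make these transcripts themselves, and the haemoglobin-rich cell is 1 cell, so neither measures free RNA, which was not tested.

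Across the 99 injured cells over 15000 UMIs the later steps varied together, and Hk2 showed little relation to them. Spearman's rho of each gene with the sum of the other later steps, in CPM, was 0.72 for Tpi1, 0.69 for Pkm, 0.61 for Pgk1, 0.59 for Aldoa and Gapdh, 0.56 for Eno1 and Ldha, and 0.53 for Pgam1. It was 0.33 for Slc2a1 and 0.09 for Hk2. Hk2 and Pgk1 were equally scarce in these cells, with a median of 4 UMIs each, and were seen in 91 and 89 of the 99. Their rho with depth differed, at -0.05 for Hk2 and 0.26 for Pgk1, as did that with Malat1, at -0.02 and -0.30. The part of scarcity, depth or Malat1 in the low rho of Hk2 was not tested. The 99 cells share 1 library, and the later-step sum also went with depth (rho 0.48) and against Malat1 (rho -0.32). The genes most like the later steps among 3879 ranked were Mif, a macrophage cytokine (0.67), Rexo2, an oligoribonuclease (0.60), Slc16a3, the lactate exporter MCT4 (0.52), Swi5, a recombination protein (0.51), and Cspg4, the NG2 proteoglycan (0.51). Of these 5, only 2 were among the first 5 when all injured cells over 5000 UMIs were used.

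Over the 6 groups of library and class, Hk2 ran against Gapdh, Pgam1 and Eno1 (Pearson's r of log2 levels with 10 CPM added, -0.95 each), Pkm (-0.87) and Aldoa (-0.80), and showed little relation to Tpi1 (-0.03), Ldha (-0.20) and Slc2a1 (0.30). The genes most like Hk2 over these groups were Pan3, a subunit of a deadenylase (0.99), Ddx6, an RNA helicase (0.99), Pum2, an RNA-binding repressor (0.99), Ivns1abp (0.99) and Gcnt1, a glycosyltransferase (0.99). All 5 peaked in uninjured Malat1-rich cells, as Hk2 did: Ivns1abp stood there at 1210 CPM, and at 255 CPM in injured Malat1-rich cells. With 6 groups, 1 of which holds the peak, such values describe that peak.

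Other enzymes of the pathway were mixed. Of 25 further glycolytic genes listed 8 passed the filter of 5% of cells in a library, 4 of them through the injured library alone and 1, Bpgm, through the uninjured library alone. Of the 3 that passed in both, 2 were higher and 1 lower, against 32.8% and 21.8% of all genes compared. Gpi1, the isomerase that follows hexokinase, went with the later steps at 319 CPM in injured against 103 CPM in uninjured cells, a ratio of 3.10 (1.63 to 6.79). Pfkl, a subunit of phosphofructokinase, stood at 122 CPM in injured against 34.3 CPM in uninjured cells, a ratio of 3.57 (1.21 to 17.3). Lower in injured cells were Pfkfb3, which makes an activator of phosphofructokinase, at 58.4 CPM in injured against 137 CPM in uninjured cells (ratio 0.426, 0.239 to 0.837), and Bpgm, an enzyme of red cells, at 7.03 CPM in injured against 126 CPM in uninjured cells, with 9 of its 11 uninjured UMIs in deep cells. Hk2 was thus not the only gene of the wider pathway that was lower, and the 12 uninjured Pfkfb3 UMIs all lay in Malat1-rich cells.

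Genes of the hypoxia response were read gene by gene. Of 15 listed 10 passed the filter of 5% of cells, but 7 of these passed through the injured library alone, where they are high, and no count or median over the 10 is given. Of the 3 that passed in both libraries 2, Hif1a and P4ha1, were higher by the rule of size and 1, Arnt, was lower, against 32.8% and 21.8% of all genes compared. The intervals of P4ha1 (ratio 2.32, 0.987 to 7.17) and Arnt span no difference. Hif1a, the oxygen-regulated subunit of hypoxia-inducible factor 1, stood at 374 CPM in injured against 57.1 CPM in uninjured cells, a ratio of 6.54 (2.80 to 20.2). Vegfa, a growth factor for vessels, had 193 injured and 0 uninjured UMIs. Egln3, a prolyl hydroxylase that marks Hif1a for breakdown, had 159 and 0. Both passed the filter through the injured library alone, so that their direction is not a result. Arnt, the partner of Hif1a, had 18.7 CPM in injured against 45.7 CPM in uninjured cells, a ratio of 0.408 (0.152 to 1.54). Of 11 glycogen genes 7 passed the filter, all 7 through the injured library alone, so that their direction is not a result. Gaa, the lysosomal glucosidase, stood at 77.6 CPM in injured cells on 287 UMIs and at 11.4 CPM in uninjured cells on 1, a ratio of 6.79 (1.21 to 269).

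Routes that branch from glycolysis were mixed too. Of 15 genes for lactate and pyruvate 11 passed the filter, 7 of them in both libraries, and of these 7 none was higher and 2, Slc16a7 and Pdk1, were lower by the rule of size on 3 uninjured UMIs each, with intervals that span no difference. Slc16a3, which passed through the injured library alone, stood at 85.7 CPM in injured against 22.9 CPM in uninjured cells, a ratio of 3.75 (1.03 to 31.1). Of 7 pentose phosphate genes 6 passed, 4 of them in both libraries, and of these 4 Pgls was higher and none lower. Both counts stand against 32.8% higher and 21.8% lower among all genes compared. Tkt, transketolase, stood at 147 CPM in injured against 206 CPM in uninjured cells, a ratio of 0.714 (0.447 to 1.21), and Pgls, which hydrolyses phosphogluconolactone, at 227 CPM in injured against 68.6 CPM in uninjured cells, a ratio of 3.31 (1.51 to 9.03). Of 10 other sugar transporters Slc2a6 and Slc2a8 passed, both through the injured library alone, with 1 and 0 uninjured UMIs.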

How the data were processed

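Optic nerves were dissociated and cells captured with 10x 3' chemistry, version v2, per the labels' protocols. The submitters' processing notes list Cell Ranger 1.3, Seurat 4.0.3 and bcl2fastq 2.17.1.14 with build mm10, and the sources used here give no annotation release. What the authors deposited is 1 table of raw whole-number UMI counts for 31053 gene rows and 778 cells, not normalized, with a line giving each cell's condition. Per the series' text they kept macrophages and microglia with 200 to 6500 genes; the sources used here do not say how these were recognised. No doublet caller was run.

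UMIs were summed per library or class and scaled to CPM. Log2 ratios used a pseudocount of 10 CPM, which draws scarce genes toward no difference and, lying under what 0 uninjured UMIs allow, can overstate genes at 0. Genes were compared where at least 10% of cells in a library had a UMI (5% for listed genes); 26 rows with names turned into dates were left out of comparisons. The rule named all members, the 4 measured genes of each other list that differed most on the log2 scale (2 for other cell types), and the 5 genes most like the later steps and most like Hk2. Some genes it names had too few UMIs to read and are not described. Hk1, Hk3, Pfkfb3, Ldhb, Arnt, P4ha1, Eno1b and the astrocyte markers at 0 were named after their values were seen. Members, lists, classes and tests were chosen with earlier results of these data known. Alternatives were other pseudocounts, weights, scalings, filters, depths, thinning and left-out cells. The intervals and rule of size were tested on simulated independent Poisson counts, with known folds larger than the rule of size. Clumping of counts in few cells, as for Hk2, was not simulated, so this check does not cover it. Python 3.11.15, numpy 2.4.6, scipy 1.17.1, pandas 2.3.3 and matplotlib 3.10.9 were used.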

Additional observations from a re-analysis of the deposited data

Results flagged for a closer look

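Ldha differed between the libraries in opposite directions by class of cell. The injured level was 2.69 times the uninjured level in deep cells and 3.08 times in Malat1-poor cells, against 0.527 times in Malat1-rich cells, where 29 injured and 8 uninjured UMIs stand behind the value. The difference between the classes was not tested, and the Malat1-rich interval (0.235 to 1.33) overlaps that of both other classes (1.15 to 8.31 in deep and 1.19 to 11.4 in Malat1-poor cells). The rule that names an outlying sample could not be applied with 1 library per condition.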

How the results depend on the processing

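No paired analysis was possible because each condition has 1 library. Of the 12 alternatives run without a split into classes, some used only cells under 5000 UMIs. Under these 12, 7 to 9 of the 10 genes were higher in injured cells and Hk2 was lower in each. The median log2 ratio of the other 9 ran from 1.87 to 2.66, against 2.21. No filter and a filter of 10% of cells could not change these values, since the 10 genes were chosen by name and each passes. In the main analysis 32.8% of all genes compared were higher and 21.8% lower, and these shares are not given for the alternatives. The log2 ratio of Hk2, -1.97 in the main analysis, was -2.56 with each cell weighted equally (193 CPM in injured against 1190 CPM in uninjured cells), -2.74 with cells thinned to 500 UMIs, and -1.28 without the 3 uninjured cells with most Hk2 UMIs, an alternative chosen after seeing the data. Without those 3 cells the Hk2 share of the pathway UMIs was 3.85% in injured and 30.9% in uninjured cells, a difference of -27.0 percentage points against -39.5. Also chosen after seeing the data was leaving out, in each class, the uninjured cell with most Hk2 UMIs, which turned the log2 ratio of Hk2 in deep cells to 0.36, against -0.62. The log2 ratio of Slc2a1 turned to -0.67 in thinned cells, with 8 injured and 1 uninjured UMIs. Pairing each of the 10 genes with each of the 3 classes gave 23 higher and 4 lower in the main analysis. With other divides or without the haemoglobin-rich cell, 22 to 25 were higher and 3 or 4 lower. Many genes pass this rule: 49.8% of all genes compared were higher among deep, 47.8% among Malat1-poor and 36.4% among Malat1-rich cells. Lower were 15%, 19.8% and 30.7% in that order, and these shares are not given for the other divides. The 23 include Pgam1 in Malat1-rich and Slc2a1 in Malat1-poor cells, higher only through the added 10 CPM. Of the 5 genes most like the later steps, 2 remained with cells over 5000 UMIs. Precision is set by the uninjured library, with 2 to 68 UMIs per gene.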
